A study of Mus musculus with 13 samples.

Results

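The genes described here make cholesterol, sense it, move it between membranes and export it from cells. They were chosen as a list of 34 gene symbols, of which 27 matched a named probe set among the 15437 tested. The 7 genes Acat2, Hmgcs1, Idi1, Fdps, Insig1, Soat1 and Nr1h2 had no named probe set here and were not analysed. Every cell can build cholesterol from acetyl-CoA through mevalonate, squalene and lanosterol. When membrane cholesterol is low, Scap carries the SREBP factors (Srebf2 encodes the main sterol regulator) out of the endoplasmic reticulum, and they switch on the synthesis genes; Insig proteins hold Scap back when sterols are plentiful. Oxysterols activate the liver X receptors (Nr1h3 encodes the alpha form), which switch on the exporters Abca1 and Abcg1. In peripheral nerve, Schwann cells need large amounts of cholesterol for myelin and make most of it themselves.

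Expression was measured by array in sciatic nerve of BKS mice aged 24 weeks. There were 6 arrays of db/db nerve (samples 110, 111, 112, 409, 410 and 411) and 7 arrays of db/+ nerve (samples 101, 103, 104, 105, 106, 404 and 407). The db mutation damages the leptin receptor gene Lepr in every tissue; db/db mice are homozygous, obese and diabetic, and the db/+ mice used as controls also carry a mutant copy. All levels below are log2 values made by the authors with RMA, a method that normalizes arrays to each other and summarises the probes of a gene, so a difference of 1 is a doubling and levels of different genes cannot be compared. Each member was tested in 2 comparisons, which share the db/db arrays and 3 of the db/+ arrays, once against all 7 db/+ arrays and once against db/+ 105, 404 and 407 only. A gene was called where limma's p, adjusted by Benjamini-Hochberg over all 15437 probe sets, was under 0.05.

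The db/+ arrays fell into 2 sets by neuronal transcripts. The mean level of 12 neuronal markers was 6.95 to 7.66 on db/db arrays and 7.57 to 8.94 on db/+ 105, 404 and 407, against 11.12 to 11.83 on db/+ 101, 103, 104 and 106. Of db/+ 105, 404 and 407, only 407 (7.57) lay within the db/db range, and db/+ 105 and 404 lay above it. The second comparison leaves those last 4 arrays, 101, 103, 104 and 106, out. The neuronal difference was smaller there but remained. Of the 12 markers, 4 were called lower in db/db nerve, beside 6.78% of all probe sets. The difference was negative for 11 of the 12, with a median of −0.86. The mean of 9 adipocyte markers was 12.96 to 13.06 in db/db and 11.75 to 12.68 in db/+ nerve, so the groups did not overlap. The mean of 7 measured markers of myelinating Schwann cells was 9.26 to 10.61 in db/db nerve. It was 10.17 to 10.90 on db/+ 105, 404 and 407, which overlapped db/db nerve. On the other db/+ arrays it was 10.67 to 11.34, above every db/db array. Mbp was at 12.90 or higher on every array. Of these 7 markers, 4 were called lower in db/db nerve over all arrays, beside 11.7% of all probe sets, with a median difference of −1.13. Against db/+ 105, 404 and 407, 0 were called lower, beside 6.78% of all probe sets, with a median of −0.55. The 12 macrophage markers averaged 11.36 to 12.06 in db/db nerve and 11.35 to 12.19 on db/+ 105, 404 and 407, which overlapped. On the other db/+ arrays they averaged 10.95 to 11.14, below every db/db array. The 9 markers of fibroblasts and perineurium averaged 12.50 to 12.69 in db/db nerve, 12.89 to 12.97 on db/+ 105, 404 and 407 and 12.40 to 12.69 on the other db/+ arrays, so db/db nerve lay below the first 3 without overlap. The 9 skeletal muscle markers averaged 6.44 to 11.31 in db/db and 6.66 to 11.92 in db/+ nerve. Lepr itself was at 5.85 to 6.56 in db/db and 6.78 to 8.98 in db/+ nerve. The actin control's 3′ probe set exceeded its 5′ one, a gap that widens as RNA degrades, by 0.49 to 0.92 in db/db nerve, 0.40 to 1.14 on db/+ 105, 404 and 407, and 0.96 to 1.40 on the other db/+ arrays. On every db/+ array except 407 (0.40), the gap was wider than on every db/db array. Nerve is a mixed tissue, so fewer cells of a type and less RNA per cell cannot be told apart. The part of neurons, fat, myelin, macrophages, fibroblasts and perineurium, muscle or RNA quality in the results below was not tested.

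Against all db/+ arrays, 8 of 27 members (29.6%) were called, beside 25.1% of all probe sets. Of these, 7 rose in db/db nerve (Lss, Nsdhl, Sc5d, Insig2, Npc1, Npc2 and Abca1) and 1 fell (Fdft1), beside 13.4% and 11.7% of all probe sets in each direction. Against db/+ 105, 404 and 407 only, 8 of 27 members were again called, beside 12.9% of all probe sets. All 8 rose (Mvd, Lss, Nsdhl, Hsd17b7, Sc5d, Dhcr7, Abca1 and Abcg1), beside 6.12% of all probe sets that rose. The median difference of the 27 members was 0.15 over all arrays, where the median of all genes was 0.02, and 0.28 against the 3 db/+ arrays, where it was −0.05. Lss, Nsdhl, Sc5d and Abca1 rose in both comparisons, which makes 14.8% of the members beside 5.20% of all probe sets. No member fell in both, as 4.11% of all probe sets did. Another 8 members were called in 1 comparison and 15 in neither.

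**Figure D1:**
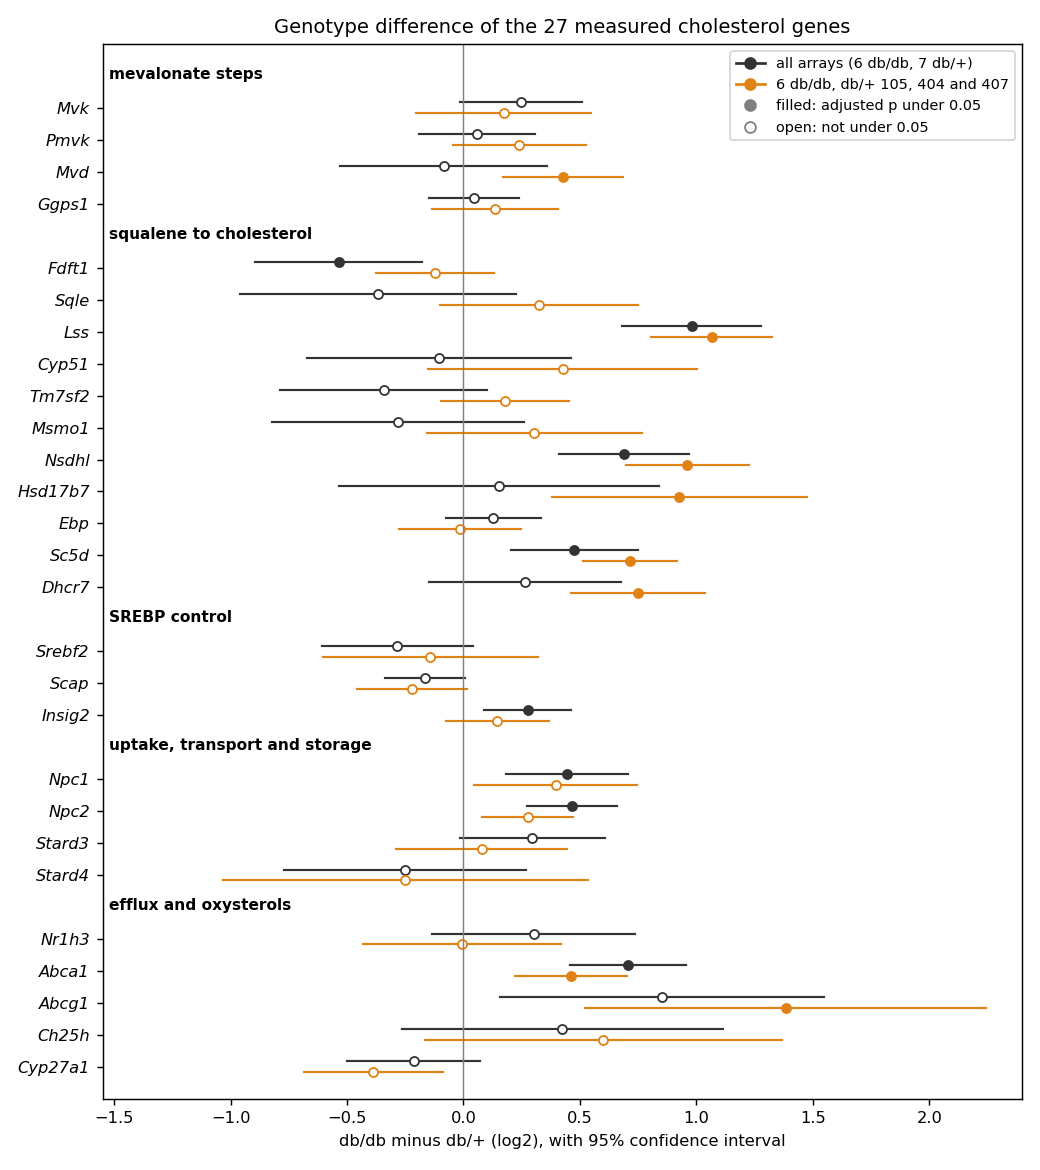
Log2 difference, db/db minus db/+, of the 27 measured cholesterol genes by pathway step, with 95% confidence intervals. Black marks use all 13 arrays and orange marks use the 6 db/db arrays with db/+ 105, 404 and 407; filled marks have an adjusted p under 0.05. Lss, Nsdhl, Sc5d and Abca1 are filled in both comparisons, and most marks between Mvd and Dhcr7 lie further right in orange than in black.

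Lss encodes lanosterol synthase, which folds squalene epoxide into the first sterol of the pathway. Its level in db/db nerve ran from 9.48 through a median of 9.64 to 9.77, against 8.31, 8.51 and 9.14 as lowest, median and highest of db/+ nerve, with 8.80, 8.51 and 8.39 on db/+ 105, 404 and 407. Every db/db array was above every db/+ array. The difference was 0.98 ± 0.14 (SE, 6 against 7 arrays; adjusted p = 0.000359), or 1.97-fold, over all arrays and 1.07 ± 0.12 (SE, 6 against 3 arrays; adjusted p = 0.000865), or 2.09-fold, against the 3 db/+ arrays. Of the members, Lss had the smallest adjusted p in either comparison.

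Nsdhl encodes the sterol dehydrogenase that acts with Msmo1 and Hsd17b7 to remove methyl groups from lanosterol-derived sterols. It was at 11.10, 11.30 and 11.37 (lowest, median, highest) in db/db nerve, against 10.08, 10.60 and 10.88 in db/+ nerve, where db/+ 105, 404 and 407 had 10.52, 10.32 and 10.08. Here too the genotypes did not overlap. The difference was 0.69 ± 0.13 (SE; adjusted p = 0.00245) over all arrays and 0.96 ± 0.12 (SE; adjusted p = 0.00147) against the 3 db/+ arrays.

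Sc5d, the desaturase that introduces a double bond into the sterol ring late in the pathway, was at 11.51, 11.62 and 11.69 in db/db nerve. In db/+ nerve it was at 10.82, 11.02 and 11.56, with 11.02, 10.85 and 10.82 on db/+ 105, 404 and 407. The highest db/+ array, among samples 101, 103, 104 and 106, reached into the db/db range, and every other db/+ array lay below it. The difference was 0.48 ± 0.13 (SE; adjusted p = 0.0164) over all arrays and 0.71 ± 0.09 (SE; adjusted p = 0.0017) against the 3 db/+ arrays.

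Abca1, which passes cellular cholesterol to lipid-poor apolipoproteins outside the cell, was at 7.42, 7.67 and 7.74 in db/db nerve. The db/+ arrays had 6.68, 6.84 and 7.28, with 7.05, 7.28 and 7.16 on db/+ 105, 404 and 407. The genotypes did not overlap. Abca1 was at its lowest on db/+ 101, 103, 104 and 106 (6.68 to 6.84). The difference was 0.71 ± 0.12 (SE; adjusted p = 0.000971) over all arrays and 0.46 ± 0.11 (SE; adjusted p = 0.0225) against the 3 db/+ arrays. The second call was lost without db/+ 105 (0.41; adjusted p = 0.0726) or db/+ 407 (0.46; adjusted p = 0.0676), and with an intensity trend in the fit (adjusted p = 0.0509).

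The samples carry numbers of 2 series, 101 to 112 and 404 to 411, and what the series mark is not in the labels. Within samples 101 to 112 (3 db/db and 5 db/+ arrays) and within samples 404 to 411 (3 db/db and 2 db/+ arrays), the differences were 0.93 and 1.15 for Lss, 0.54 and 1.06 for Nsdhl, 0.37 and 0.76 for Sc5d, and 0.81 and 0.43 for Abca1. All 4 genes were higher in db/db nerve in both series. Lss and Nsdhl passed the threshold in each series alone, Sc5d missed it in the lower one (adjusted p = 0.139) and Abca1 in the higher one (adjusted p = 0.0949).

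The promoters of these 4 genes are shown because they are the members that rose in both comparisons. SREBP factors bind sterol regulatory elements, usually beside the factor NF-Y, and they can also bind E-boxes. Each window runs from 250 bases before to 50 bases after the RefSeq start in GRCm38.p6, and both of its strands were searched. The NF-Y motif searched was CCAAT. The E-box searched was the palindrome CACGTG. The sterol regulatory element searched was TCACNCCAC, and none of the 3 motifs overlaps another in these windows. Capitals in the sequences mark the NF-Y motif, which reads ATTGG when it lies on the other strand. They also mark the E-box. The windows are chr10:76531355-76531654 on the + strand for Lss, chrX:72918271-72918570 on the + strand for Nsdhl, chr9:42264251-42264550 on the − strand for Sc5d and chr4:53159846-53160145 on the − strand for Abca1.
Lss: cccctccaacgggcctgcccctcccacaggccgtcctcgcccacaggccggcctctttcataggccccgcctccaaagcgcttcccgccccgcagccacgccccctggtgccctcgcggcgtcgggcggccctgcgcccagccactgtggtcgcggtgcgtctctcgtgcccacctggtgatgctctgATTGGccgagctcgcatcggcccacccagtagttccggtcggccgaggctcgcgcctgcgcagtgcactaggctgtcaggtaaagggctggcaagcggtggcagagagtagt
Nsdhl: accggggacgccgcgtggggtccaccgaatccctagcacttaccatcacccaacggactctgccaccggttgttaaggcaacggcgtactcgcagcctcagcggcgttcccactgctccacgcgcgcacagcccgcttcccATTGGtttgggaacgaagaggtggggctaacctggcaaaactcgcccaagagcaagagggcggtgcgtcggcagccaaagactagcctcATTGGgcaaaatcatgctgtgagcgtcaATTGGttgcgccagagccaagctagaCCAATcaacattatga
Sc5d: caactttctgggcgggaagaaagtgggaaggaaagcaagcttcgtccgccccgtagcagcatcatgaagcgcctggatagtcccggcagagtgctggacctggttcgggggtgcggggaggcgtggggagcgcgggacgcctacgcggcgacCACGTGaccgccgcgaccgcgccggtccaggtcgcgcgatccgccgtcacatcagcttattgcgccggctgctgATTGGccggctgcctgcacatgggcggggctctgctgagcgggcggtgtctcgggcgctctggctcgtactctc
Abca1: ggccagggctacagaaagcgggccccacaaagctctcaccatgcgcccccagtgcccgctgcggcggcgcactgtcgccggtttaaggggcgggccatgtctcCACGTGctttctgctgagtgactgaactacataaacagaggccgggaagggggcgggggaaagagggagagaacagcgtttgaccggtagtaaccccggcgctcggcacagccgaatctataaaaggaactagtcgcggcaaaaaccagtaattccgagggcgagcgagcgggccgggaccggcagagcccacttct

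The Nsdhl window held 4 CCAAT matches, and those of Lss and Sc5d held 1 each. The Sc5d and Abca1 windows each held 1 CACGTG. None of the 4 windows held TCACNCCAC. Of the 27 measured members, 22 had a window in the table, and 18 of these held CCAAT, 5 held CACGTG and 1 (Stard3) held TCACNCCAC. Counted by window, since a gene can have several, 62.1% of 29 member windows held CCAAT, beside 37.4% of all 32851 windows. For CACGTG the shares were 20.7% and 7.15%, and for TCACNCCAC 3.45% and 1.24%. These matches describe letters in the windows and do not show binding. Motifs of the liver X receptors, which switch on Abca1, were not searched.

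**Figure D2:**
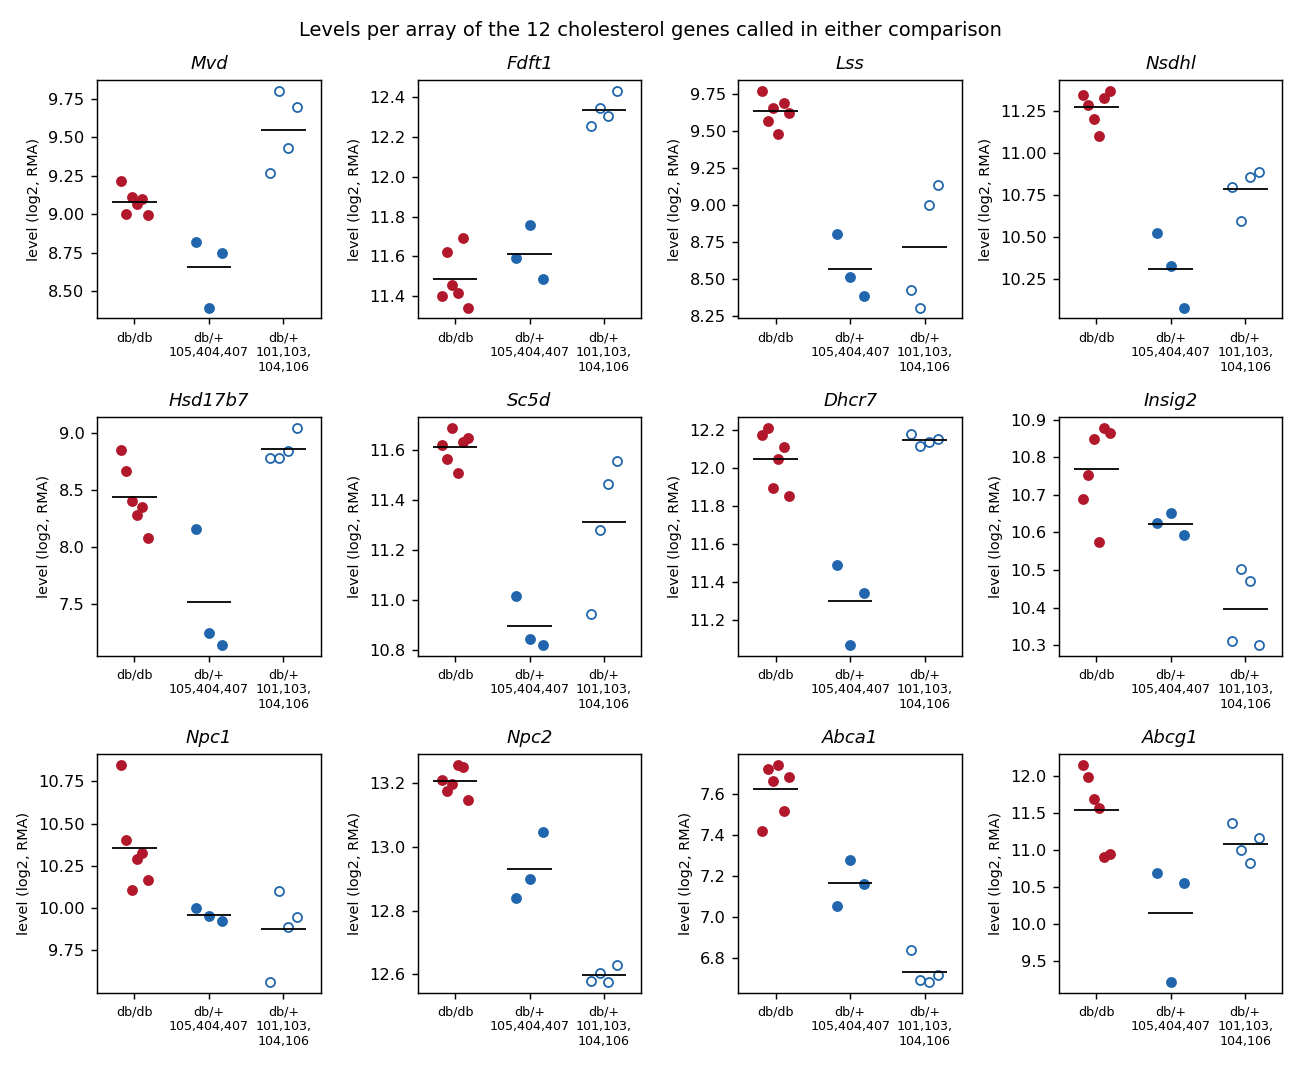
Log2 level on each of the 13 arrays for the 12 cholesterol genes called in either comparison. In each panel db/db arrays are on the left, then db/+ 105, 404 and 407 (filled), then db/+ 101, 103, 104 and 106 (open), and the horizontal line is the mean of the points beside it. Lss, Nsdhl, Npc1, Npc2 and Abca1 lie higher on all 6 db/db arrays than on all 7 db/+ arrays, whereas Mvd and Dhcr7 on db/db arrays lie above db/+ 105, 404 and 407 but not above the other db/+ arrays.

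The 15 measured synthesis genes were read by step. Against all db/+ arrays 3 of 15 rose (beside 13.4% of all probe sets) and 1 fell (beside 11.7%), with a median difference of 0.06, where that of all genes was 0.02. Against db/+ 105, 404 and 407, 6 of 15 rose (40.0%, beside 6.12%) and 0 fell (beside 6.78%), with a median of 0.32, where that of all genes was −0.05. For 9 of the 15 (60.0%, beside 12.1% of all probe sets), db/+ 101, 103, 104 and 106 all lay above db/+ 105, 404 and 407.

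In the early mevalonate steps, 0 of 4 genes were called over all arrays, beside 25.1% of all probe sets. Against the 3 db/+ arrays 1 was called, beside 12.9%. Mvd, the decarboxylase that makes the isoprene unit, was at 8.99, 9.08 and 9.22 in db/db nerve, against 8.39, 9.27 and 9.80 in db/+ nerve. The 3 lowest db/+ values, 8.82, 8.39 and 8.75, were those of db/+ 105, 404 and 407, and the 4 others (9.27 to 9.80) were above every db/db array. The difference was −0.09 ± 0.21 (SE; adjusted p = 0.794) over all arrays and 0.43 ± 0.11 (SE; adjusted p = 0.0393) against the 3 db/+ arrays. That call was kept without db/+ 105 and lost without any other of the 9 arrays, with an adjusted p of up to 0.133 (without db/+ 404, at 0.30). It was also lost with an intensity trend (adjusted p = 0.0508). The kinases Mvk and Pmvk, which phosphorylate mevalonate and its phosphate, differed by 0.25 and 0.06 over all arrays and by 0.17 and 0.24 against the 3. Ggps1, which diverts isoprene units to protein prenylation, differed by 0.04 and 0.13. None of these 3 passed the test in either comparison.

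Fdft1, squalene synthase, catalyses the step that commits isoprene units to sterols, and it was the 1 member that fell. Its level was 11.34, 11.44 and 11.69 in db/db nerve, against 11.48, 12.26 and 12.43 in db/+ nerve. The db/db values overlapped those of db/+ 105, 404 and 407 (11.59, 11.76 and 11.48) and lay below the 12.26 to 12.43 of the other 4. The difference was −0.54 ± 0.17 (SE; adjusted p = 0.0328) over all arrays and −0.12 ± 0.11 (SE; adjusted p = 0.533) against the 3 db/+ arrays. The call over all arrays was lost without any of db/+ 101, 103, 104 and 106 or db/db 110, 112, 409 and 411, with differences of −0.47 to −0.53 and an adjusted p of up to 0.0673.

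Sqle, the epoxidase that acts on squalene next, was at 10.01, 10.27 and 10.65 in db/db nerve and at 9.65, 11.10 and 11.27 in db/+ nerve. The db/db arrays lay below the 4 db/+ arrays with high neuronal markers and overlapped the other 3, with 10.42, 9.79 and 9.65 on db/+ 105, 404 and 407 and 11.10 to 11.27 on the 4. The difference was −0.37 (95% confidence interval −0.96 to 0.23; adjusted p = 0.35) over all arrays and 0.32 (−0.10 to 0.75; adjusted p = 0.304) against the 3, so neither comparison passed.

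Past lanosterol, Hsd17b7 and Dhcr7 passed the threshold against the 3 db/+ arrays and not over all arrays. Hsd17b7, the ketosteroid reductase that completes the removal of methyl groups, was at 8.08, 8.38 and 8.85 in db/db nerve, against 7.14, 8.78 and 9.05 in db/+ nerve. On db/+ 105, 404 and 407 it was at 8.16, 7.24 and 7.14, so db/+ 105 reached into the db/db range. The difference was 0.15 ± 0.32 (SE; adjusted p = 0.758) over all arrays and 0.93 ± 0.24 (SE; adjusted p = 0.0365) against the 3. The second call held without db/+ 105 or db/db 411 and was lost without any other of the 9 arrays, with an adjusted p of up to 0.137 (without db/+ 407, at 0.74). Dhcr7, the reductase of the last step to cholesterol, was at 11.85, 12.08 and 12.21 in db/db nerve, against 11.07, 12.12 and 12.18 in db/+ nerve. All db/db arrays were above db/+ 105, 404 and 407 (11.49, 11.07 and 11.34) and overlapped the other 4 (12.12 to 12.18). The difference was 0.26 ± 0.19 (SE; adjusted p = 0.331) over all arrays and 0.75 ± 0.13 (SE; adjusted p = 0.00614) against the 3. Whether the 2 comparisons differ for these genes was not tested, since they share arrays.

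The other 4 genes of this stretch passed in neither comparison. Cyp51, the lanosterol demethylase, differed by −0.11 over all arrays and 0.43 against the 3 db/+ arrays, and Msmo1, the methyl sterol oxidase, by −0.28 and 0.30. Tm7sf2, a sterol reductase, differed by −0.34 and 0.18. These 3, like Sqle and Mvd, were negative in the first comparison and positive in the second. Ebp, the sterol isomerase, differed by 0.13 and −0.02, with 95% confidence intervals of −0.08 to 0.33 and −0.28 to 0.25.

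**Figure D3:**
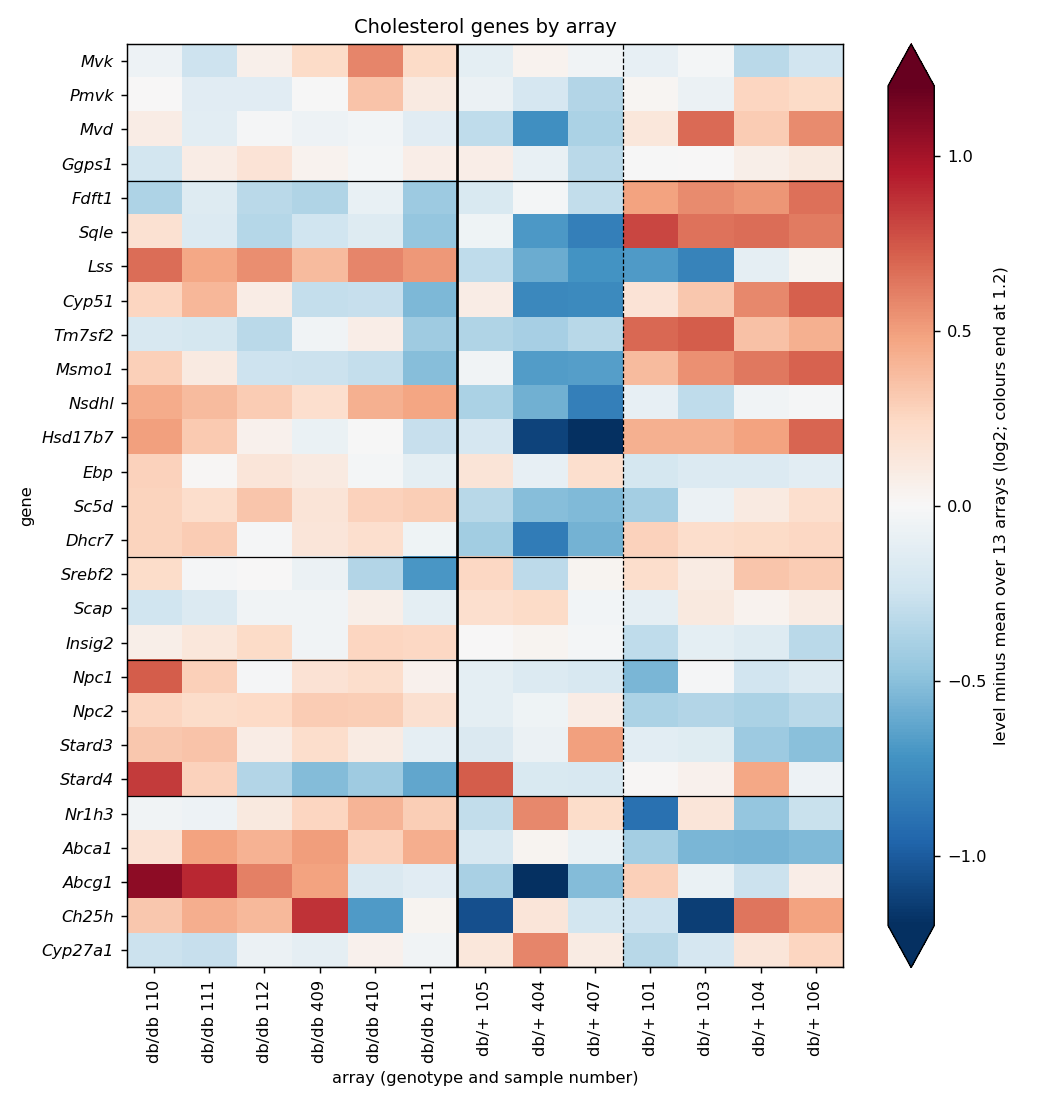
Level of each of the 27 cholesterol genes on each array minus that gene's mean over the 13 arrays (log2), genes by pathway step and arrays from db/db on the left to db/+ on the right; the colour scale ends at 1.2 in either direction. The synthesis genes from Mvd to Dhcr7 are mostly low on db/+ 404 and 407 and mostly high on db/+ 101, 103, 104 and 106, with Lss and Ebp among the exceptions, while Lss, Nsdhl and Sc5d are above their means on all db/db arrays.

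Averaged over the 11 genes from squalene synthase to Dhcr7, the level was 10.50 to 10.88 in db/db nerve, 10.05 to 10.46 on db/+ 105, 404 and 407 and 10.81 to 11.02 on the other db/+ arrays. All db/db means lay above those of db/+ 105, 404 and 407, and only db/db 110 reached the range of the other 4. Over all 27 members, db/+ 101, 103, 104 and 106 were all above the other db/+ arrays for 10 (37.0%, beside 12.1% of all probe sets) and all below for 4 (14.8%, beside 21.0%). The 10 were Mvd, Fdft1, Sqle, Cyp51, Tm7sf2, Msmo1, Nsdhl, Hsd17b7, Dhcr7 and Abcg1. The 4 were Ebp, Insig2, Npc2 and Abca1. The neuronal markers were higher on the same 4 arrays; no test was made between these sets of db/+ arrays, which an earlier look at the same data had set apart.

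Among the genes that control SREBP, Insig2 rose over all arrays. Insig2, which keeps Scap in the endoplasmic reticulum, was at 10.57, 10.80 and 10.88 in db/db nerve, against 10.30, 10.50 and 10.65 in db/+ nerve. The highest db/+ values were the 10.62, 10.65 and 10.59 of db/+ 105, 404 and 407, which overlapped the db/db range. The difference was 0.27 ± 0.09 (SE; adjusted p = 0.0349) over all arrays and 0.15 ± 0.10 (SE; adjusted p = 0.374) against the 3. The call over all arrays was lost without any of db/+ 101, 103, 104 and 106 or db/db 111, 112, 410 and 411, with differences of 0.24 to 0.28 and an adjusted p of up to 0.0744.

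Srebf2 was at 9.67, 10.33 and 10.60 in db/db nerve and at 10.06, 10.59 and 10.71 in db/+ nerve, with 10.62, 10.06 and 10.41 on db/+ 105, 404 and 407. The genotypes overlapped. It differed by −0.28 (95% confidence interval −0.61 to 0.04; adjusted p = 0.182) over all arrays and by −0.14 (−0.60 to 0.32; adjusted p = 0.703) against the 3. Scap differed by −0.16 and −0.22 and passed in neither comparison. Transcript level does not report the processing of the SREBP protein, which was not measured.

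Npc1 and Npc2, the membrane-bound and soluble proteins that together export cholesterol from lysosomes, rose over all arrays and missed the threshold against the 3 db/+ arrays. Npc2 was at 13.14, 13.20 and 13.26 in db/db nerve, against 12.58, 12.63 and 13.05 in db/+ nerve, with 12.84, 12.90 and 13.05 on db/+ 105, 404 and 407. The difference was 0.47 ± 0.09 (SE; adjusted p = 0.00301) over all arrays and 0.28 ± 0.09 (SE; adjusted p = 0.0674) against the 3. It passed against the 3 in 5 of 17 alternatives, among them blocking by number series (adjusted p = 0.0336) and an intensity trend (adjusted p = 0.0105). In the other 12, which include leaving out each array, it did not pass (adjusted p of up to 0.174). No db/+ array reached the db/db range of Npc2. Npc1 was at 10.11, 10.31 and 10.85 in db/db nerve, against 9.56, 9.95 and 10.10 in db/+ nerve, with 10.001, 9.95 and 9.93 on db/+ 105, 404 and 407. Its difference was 0.44 ± 0.12 (SE; adjusted p = 0.0196) over all arrays and 0.40 ± 0.16 (SE; adjusted p = 0.13) against the 3. The Npc1 ranges met without overlap, the lowest db/db array being just above the highest db/+ array. Within samples 101 to 112 and within 404 to 411 alone, Npc1 passed in neither (adjusted p = 0.0751 and 0.133), and Npc2 passed in the lower series (adjusted p = 0.0115) and not in the higher one (adjusted p = 0.229).

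Of the sterol carriers, Stard3, which tethers late endosomes to the endoplasmic reticulum, was at 9.25 to 9.70 in db/db and 8.86 to 9.84 in db/+ nerve. Stard4, a soluble carrier, was at 7.44 to 8.90 in db/db and 7.87 to 8.79 in db/+ nerve. They differed by 0.30 and −0.25 over all arrays and by 0.08 and −0.25 against the 3 db/+ arrays. The genotypes overlapped for both, and neither gene passed.

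On the export side, Abcg1, which loads cholesterol onto high-density lipoprotein, rose against the 3 db/+ arrays. It was at 10.90, 11.63 and 12.15 in db/db nerve, against 9.22, 10.82 and 11.37 in db/+ nerve. The db/db arrays were all above db/+ 105, 404 and 407 (10.69, 9.22 and 10.56) and overlapped the 4 others (10.82 to 11.37). The difference was 0.85 ± 0.32 (SE; adjusted p = 0.0694) over all arrays and 1.38 ± 0.38 (SE; adjusted p = 0.0438) against the 3. The second call was lost without db/+ 404 (0.92; adjusted p = 0.148), db/+ 407 or any of db/db 110, 111, 112 and 409, and with array weights (adjusted p = 0.0509). Blocked by number series, the difference over all arrays was 1.06 (adjusted p = 0.00419). Within samples 101 to 112 it was 0.93 (adjusted p = 0.0155), and within samples 404 to 411 it was 1.25 (adjusted p = 0.146). Nr1h3 was at 10.08 to 10.55 in db/db and 9.25 to 10.72 in db/+ nerve, and differed by 0.30 and −0.01 without passing.

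The hydroxylases that make oxysterols passed in neither comparison. Ch25h was at 6.99, 8.02 and 8.53 in db/db nerve and at 6.54, 7.45 and 8.31 in db/+ nerve, with differences of 0.42 (95% confidence interval −0.27 to 1.11) and 0.60 (−0.17 to 1.37). Cyp27a1 was at 10.78, 10.97 and 11.11 in db/db nerve and at 10.72, 11.19 and 11.64 in db/+ nerve, with differences of −0.21 (−0.50 to 0.07) and −0.39 (−0.69 to −0.09; adjusted p = 0.09). Every db/db array was below db/+ 105, 404 and 407 for Cyp27a1, the 1 member of which this was true, beside 9.99% of all probe sets. Over both directions the share was 19.0% of all probe sets. In the other direction, every db/db array was above those 3 for 9 members (33.3%), beside 8.98% of all probe sets. Over all arrays 5 members lay higher without overlap (18.5%), beside 6.17% of all probe sets, and 0 lay lower, beside 3.51%; over both directions the share was 9.68% of all probe sets.

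The db/db arrays also varied among themselves. Samples 110, 111 and 112 were all above 409, 410 and 411 for 6 members (22.2%, beside 13.1% of all probe sets), namely Cyp51, Msmo1, Hsd17b7, Srebf2, Stard4 and Abcg1. They were all below for Mvk and Nr1h3 (7.41%, beside 19.4%). Cyp51, for example, was at 10.60 to 10.90 on the lower-numbered db/db arrays and at 9.97 to 10.23 on the higher-numbered ones. For the called members not yet given by series, the genotype differences within samples 101 to 112 and within 404 to 411 were −0.69 and −0.14 for Fdft1, 0.32 and 0.15 for Insig2, 0.55 and 0.32 for Npc1, and 0.55 and 0.24 for Npc2. Those of the genes called against the 3 db/+ arrays alone were −0.29 and 0.48 for Mvd, −0.08 and 1.05 for Hsd17b7, and 0.08 and 0.80 for Dhcr7. Mvd and Hsd17b7 differed in sign between the series. The 4 db/+ arrays with high neuronal markers all belong to the lower series, where db/+ 105 is the only other db/+ array. The genotype difference was tested for a change between the number series, as an interaction. It was called for 0 of 27 members, as for 0.00% of all probe sets, with a smallest adjusted p of 0.232. At an unadjusted p under 0.05 it passed for 11 of 27 members, beside 15.3% of all probe sets. Of the 15 synthesis genes it passed for 9.

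A further 76 genes of the same pathways were listed, of which 62 were measured. Over all arrays 25 of 62 (40.3%) were called, beside 25.1% of all probe sets, with a median difference of −0.00. Of these, 15 were higher in db/db nerve (24.2%, beside 13.4%) and 10 lower (16.1%, beside 11.7%). Against the 3 db/+ arrays 11 of 62 (17.7%) were called, beside 12.9% of all probe sets, with a median of −0.05. Of these, 7 were higher (11.3%, beside 6.12%) and 4 lower (6.45%, beside 6.78%). Called in both were 7 that rose (11.3%, beside 5.20% of all probe sets) and Lcat, which fell. By step, over all arrays, where 13.4% of all probe sets were higher and 11.7% lower, lipoprotein uptake had 4 of 7 higher and 0 lower, and transport and storage had 6 of 15 higher and 2 lower. Efflux, apolipoproteins and oxysterols had 3 of 17 higher and 6 lower, isoprenoid branches 1 of 11 higher and 1 lower, SREBP control 1 of 8 higher, and the remaining synthesis enzymes 0 of 4 higher and 1 lower. In the second comparison, where 6.12% of all probe sets were higher and 6.78% lower, lipoprotein uptake had 2 of 7 higher and 0 lower. Transport and storage had 2 of 15 higher and 0 lower, and efflux, apolipoproteins and oxysterols 1 of 17 higher and 3 lower. Isoprenoid branches had 1 of 11 higher and 1 lower, SREBP control 1 of 8 higher, and the remaining synthesis enzymes 0 of 4 called.

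**Figure D4:**
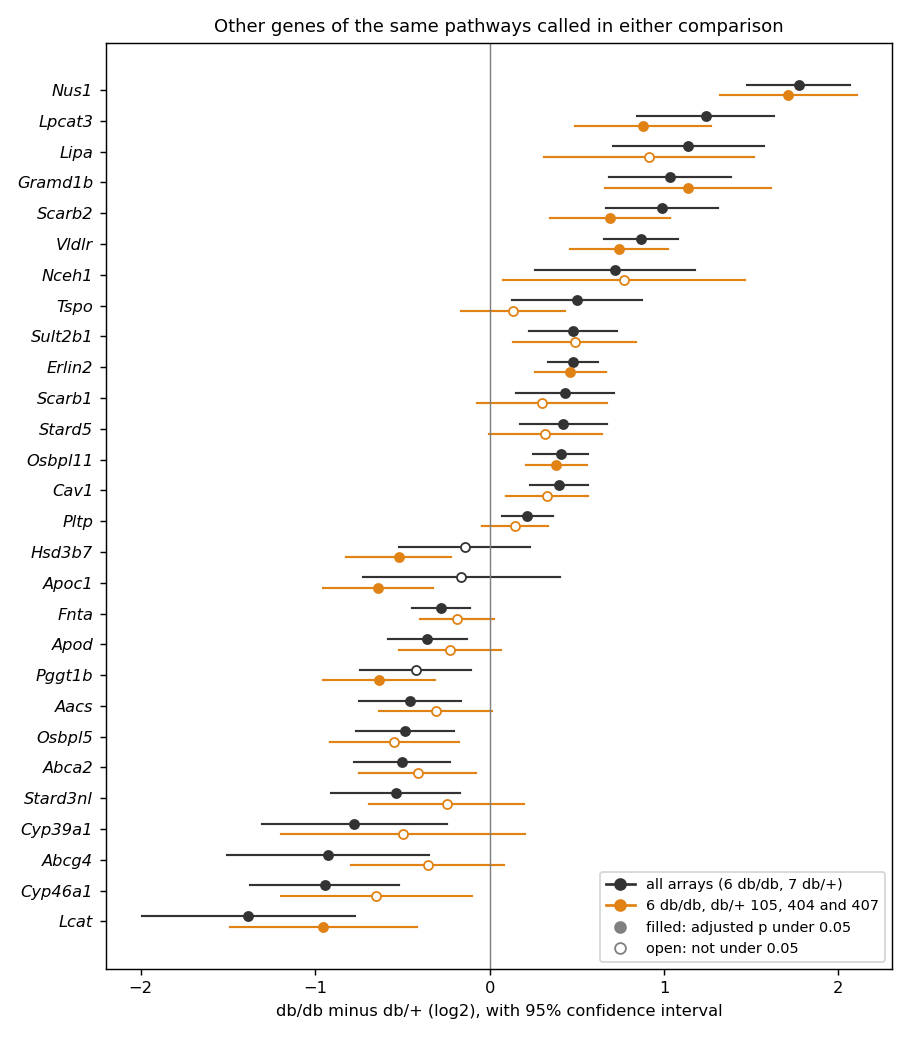
Log2 difference, db/db minus db/+, with 95% confidence intervals, of the 28 further pathway genes called in either comparison, ordered by the difference over all arrays. Black marks use all 13 arrays, orange marks use the 6 db/db arrays with db/+ 105, 404 and 407, and filled marks have an adjusted p under 0.05. Nus1 has the largest positive and Lcat the largest negative difference of the genes drawn.

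Nus1, a subunit of the prenyltransferase that makes dolichol from isoprene units, was at 9.74, 10.18 and 10.24 in db/db nerve, against 8.12, 8.24 and 8.83 in db/+ nerve. It differed by 1.77 ± 0.14 (SE; adjusted p = 3.82e-06) over all arrays and by 1.71 ± 0.17 (SE; adjusted p = 0.000673) against the 3 db/+ arrays, with no overlap. That was more than for any of the 27 members in either comparison. Vldlr, a receptor that takes up triglyceride-rich lipoproteins, was at 11.37, 11.57 and 11.81 in db/db nerve, against 10.56, 10.73 and 10.90 in db/+ nerve. It rose by 0.87 and 0.74 in the 2 comparisons. The lysosomal membrane protein gene Scarb2 rose by 0.99 and 0.69, and Gramd1b, whose protein carries cholesterol from the plasma membrane to the endoplasmic reticulum, by 1.04 and 1.14. Lpcat3, which puts polyunsaturated fatty acids into phospholipids, rose by 1.24 and 0.88.

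Smaller rises were those of Erlin2, an endoplasmic reticulum protein that takes part in degrading HMG-CoA reductase (0.48 and 0.46), and of the oxysterol-binding protein gene Osbpl11 (0.41 and 0.38). Lcat, whose enzyme esterifies cholesterol in lipoproteins, was at 6.50, 7.23 and 7.87 in db/db nerve, against 8.07, 8.28 and 9.82 in db/+ nerve. No db/db array reached the db/+ range. It fell by 1.38 on the log2 scale over all arrays (adjusted p = 0.00418) and by 0.95 against the 3 db/+ arrays (adjusted p = 0.0301).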

How the data were processed

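Total RNA of sciatic nerve was amplified, biotin-labelled and hybridised to 1-colour arrays (labels' protocols). The authors deposited log2 levels, which per the submitters' processing notes come from RMA; they were taken unchanged. Neither the RMA version nor the probe set definition is given in the sources used here. RMA removes differences in total signal between arrays and compresses folds of dim genes. The values carry no detection calls. Array medians were 8.63 to 8.71, and arrays correlated at 0.894 to 0.989 across genes.

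Of 15479 rows, 42 controls were left out. Of the 15437 tested, 14801 had 1 gene symbol, 0 had several and 636 had none here. Genotype groups came from the labels. The labels do not state that each sample is a separate animal, so p-values cover only the spread between samples; precision is limited by how many arrays there are. Each comparison was fitted with lmFit and eBayes of limma 3.58.1 (R 4.3.3), two-sided, on its own arrays, with Benjamini-Hochberg adjustment over 15437 probe sets. On simulated data for 15437 genes the fit recovered 74% of log2 changes of 1 and 96% of changes of 2 over all arrays (6 false calls of 176), and 72% and 88% with the 3 db/+ arrays (5 of 165). The simulation drew independent normal noise for each gene and array and changed 100 genes by each amount. It did not carry the split among the db/+ arrays, so these rates need not hold for the real comparisons. All 27 members stayed when genes under the 0.25 quantile of mean level were removed. Alternatives were an intensity trend, quantile normalization, median centring, weighting of arrays, the number series (blocked or each alone), an exact rank-sum test and leaving out each array.

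Members, lists, comparisons and the rule for named genes were chosen with earlier results of these data known. Named were all members, with full values for those called in either comparison and for Srebf2, Sqle, Abca1 and Abcg1, and further pathway genes past the threshold in both comparisons, at most 3 per list. Tables and figures were made with Python 3.11.15, pandas 2.3.3, numpy 2.4.6 and matplotlib 3.10.9.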

Additional observations from a re-analysis of the deposited data

Results flagged for a closer look

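In 2 of the 54 sets of member levels examined (27 members in each genotype), the most extreme array stood further from the next than Dixon's test allows at its 95% level; chance alone gives about 1 in 20. Both were low db/+ arrays. Npc1 was at 9.565 on db/+ 101, below the next db/+ array at 9.888. Abcg1 was at 9.222 on db/+ 404, below the next at 10.559.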

How the results depend on the processing

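Over all arrays, the 8 members called became 14 (9 higher, 5 lower) with array weights and 5 in samples 404 to 411 alone, and 6 to 9 when each array was left out; the 25 further genes became 6 in samples 404 to 411 alone and 17 to 30. Against db/+ 105, 404 and 407, the 8 members became 0 by the exact rank-sum test and 4 to 7 when each array was left out, and the 11 further genes became 0 and 7 to 12. With 6 against 3 arrays that test reached an adjusted p of 0.125 at best, so it called 0 of all probe sets. At an unadjusted p under 0.05 it passed 12 members and 21 further genes. Shares of all probe sets for the other counts are not given here. From the counts in this section alone, a shift in these genes therefore cannot be told from a shift across all probe sets. Of the 12 members called in either comparison, Mvd and Hsd17b7 changed sign over all arrays. Mvd, at −0.09, was at 0.0082 with the number series as a block, −0.21 to 0.021 when each array was left out (above 0 without db/+ 103 or 106), 0.48 in samples 404 to 411 alone and 0.43 against the 3 db/+ arrays. Hsd17b7, at 0.15, was at −0.27 with array weights, −0.039 to 0.28 when each array was left out (below 0 without db/+ 404 or 407) and −0.083 in samples 101 to 112 alone. Lss and Nsdhl kept their call in all 24 alternatives over all arrays, Sc5d in all but samples 101 to 112 alone and Abca1 in all but samples 404 to 411 alone; Fdft1 and Insig2 each lost it in 11. Against the 3 db/+ arrays, leaving out each of 9 arrays lost the call of Mvd 8 times, Hsd17b7 7, Abcg1 6 and Abca1 2, and of Lss, Nsdhl, Sc5d and Dhcr7 0 times. The cause was not tested. No paired analysis was possible because the genotypes share no sample numbers.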
